A study of Mus musculus with 23 samples.

Results

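The effect of *Rbpj* loss was examined in PLET1+ thymic epithelial progenitor cells (TEPCs) of E12.5 embryos. The members were the 6 libraries, of 23 in the series, whose count columns are labelled E12.5, PLET1+ and either *Rbpj* loss of function or wild type, 3 of each. The study asked how Notch signaling acts on the early thymic epithelium, and its other libraries come from E14.5 PLET1+ and PLET1- thymic epithelial cells (TECs) of the same cross and from E14.5 PLET1+ TECs with forced Notch activity. Each library was made by Smart-seq2 from 100 cells sorted directly into lysis buffer, without molecular identifiers, and read as pairs of 75 bases. The *Rbpj* conditional knockout (cKO) libraries carry the genotype *Foxn1Cre* *Rbpj* FL/FL in the labels and the control libraries the genotype wild type. All 6 came from embryonic thymus, with the strain given as C57BL/6. The controls were littermates from a cross of *Foxn1Cre* *Rbpj* FL/+ with *Rbpj* FL/FL mice. Every embryo of that cross inherits at least 1 floxed *Rbpj* allele, and the labels do not say whether a control also carried *Foxn1Cre*. *Foxn1Cre* deletes in TECs and in some skin epithelium. Because *Foxn1* itself comes on in the thymus shortly before this stage, any deletion in these cells was recent. The paper checked recombination at E14.5 and later, so its extent in these E12.5 cells is not known. Replicates 1 and 2 of both groups are labelled batch 1 and replicate 3 of both groups batch 2. The paper states that the E12.5 samples came from 2 litters, taken on separate days. Neither the labels nor the methods tie a library to a single embryo, so the p-values measure the spread between libraries. That spread was estimated from all 23 libraries in a joint fit, not from these 6 alone.

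Notch receptors are cleaved when a ligand on a neighbouring cell binds them, and the freed intracellular domain enters the nucleus, where it joins the DNA-binding protein RBPJ and a Mastermind co-activator. Without the intracellular domain RBPJ recruits co-repressors, so its loss can both lower Notch-activated genes and release genes that RBPJ holds down. In the thymus, Notch signaling in thymocytes is known for directing T-cell fate, and TECs are the source of its ligand DLL4. The PLET1+ cells of the early thymus primordium include the progenitors of both cortical and medullary TECs (cTECs and mTECs).

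Because RBPJ acts on DNA, the 250 bases before the start of each gene that changed at E12.5 were searched for TGGGAA, the core of the RBPJ site, and its reverse complement TTCCCA. The sequences come from RefSeq promoters on GRCm38.p6, and the start meant is that of RefSeq, which can differ from the gene coordinates given below. Of the 5 genes called higher in the cKO, described after this, 3 held the motif, and it is given in capitals here in the strand of the gene.
Xaf1, chr11:72301379-72301628, plus strand: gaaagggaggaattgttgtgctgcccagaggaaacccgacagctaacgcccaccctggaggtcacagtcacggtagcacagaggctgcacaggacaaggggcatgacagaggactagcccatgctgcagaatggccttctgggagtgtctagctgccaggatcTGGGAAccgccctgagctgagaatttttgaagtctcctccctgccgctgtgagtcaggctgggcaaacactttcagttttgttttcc
Fgl2, chr5:21372423-21372672, plus strand: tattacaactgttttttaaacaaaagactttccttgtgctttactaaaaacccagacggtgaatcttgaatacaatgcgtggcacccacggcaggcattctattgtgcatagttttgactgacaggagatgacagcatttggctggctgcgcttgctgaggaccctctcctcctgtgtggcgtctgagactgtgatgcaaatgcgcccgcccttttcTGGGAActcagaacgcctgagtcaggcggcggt
H2-Q7, chr17:35438905-35439154, plus strand: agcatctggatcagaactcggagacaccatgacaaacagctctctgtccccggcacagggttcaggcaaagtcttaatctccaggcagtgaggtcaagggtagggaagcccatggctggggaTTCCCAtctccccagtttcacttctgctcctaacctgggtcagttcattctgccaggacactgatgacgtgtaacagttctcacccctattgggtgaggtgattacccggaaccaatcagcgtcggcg
The motif began 87, 33 and 128 bases before the RefSeq start in *Xaf1*, *Fgl2* and *H2-Q7*. The *Fgl2* coordinates given below begin at 21372642, inside the window, and its motif spans that position. Of the Notch target genes with an entry, 4 of 6 held it, among them *Hey2*, which is shown as a member of the classical target family.
Hey2, chr10:30842784-30843033, minus strand: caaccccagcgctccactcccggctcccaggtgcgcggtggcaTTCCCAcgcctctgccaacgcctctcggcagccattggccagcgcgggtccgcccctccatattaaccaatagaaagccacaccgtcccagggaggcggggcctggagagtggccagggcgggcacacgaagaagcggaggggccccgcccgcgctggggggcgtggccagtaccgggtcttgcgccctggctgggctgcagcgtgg
Here the motif began 207 bases before the start. Of all 27025 genes with an entry, 6510 (24.1%) held the motif in this window. Of the genes whose cKO and control libraries did not overlap, it was held by 68 of 390 that were higher in the cKO (17.4%) and 94 of 376 that were lower (25%). The remaining called genes, *Lgals3* and *Zcchc4*, held none in their windows, and no entry was found for *Hes1*, *Hey1*, *Heyl* and *Tst*. The *Lgals3* window begins at 47373610, inside the gene as given below, which begins at 47367751. A match of these letters describes the sequence and does not show binding.

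The 6 libraries held between 20053241 and 65623103 assigned read counts, with 16279 to 18587 genes detected and 6.80% to 14.6% of counts on mitochondrially encoded genes. Pairs of these libraries correlated at r = 0.873 to 0.928 across tested genes. Every pair with cKO replicate 3 lay at 0.873 to 0.885, and every other pair at 0.890 or above. That library also had the fewest genes detected and the lowest TMM scaling factor of the 6 (0.776, against 0.932 to 1.09). Expression is given below as CPM, the read counts of each library relative to its total after adjustment by edgeR's TMM factors, always in the order of replicates 1, 2 and 3. Markers of the labelled cell type were high. The summed level of 6 epithelial markers (*Epcam*, *Cdh1*, *Krt8*, *Krt18*, *Foxn1* and *Plet1*) was 3585 to 4798 CPM in the controls and 2543 to 5904 CPM in the cKO. Summed endothelial markers reached 5.10 CPM at most, erythroid markers 5.94 CPM and mesenchymal markers 71.7 CPM. Myeloid markers summed to 8.10 to 10.5 CPM in the controls and 2.97 to 19.5 CPM in the cKO. *Lyz2*, *Itgam* and *Aif1* were at 0 counts in all 6 libraries, while *Cd68* reached 403, *Mrc1* 158 and *Fcer1g* 110 counts in a library. Lymphoid markers summed to 74.6 to 87.7 CPM in the controls and 36.3 to 60.6 CPM in the cKO. *Gata3* was the largest part in the controls, at 43.9 to 79.3 CPM, and was at 14 to 34.2 CPM in the cKO. *Cd3e*, *Il7r* and *Rag1* were at 0 counts in all 6, while *Lck* reached 1647 and *Tcf7* 547 counts in a library. Parathyroid markers (*Gcm2*, *Pth* and *Casr*) were abundant, at 1288 to 8800 CPM in the controls and 661 to 1502 CPM in the cKO. The Y-linked genes were high in control replicate 1 and in cKO replicates 1 and 2, so sex was not balanced between the groups.

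*Rbpj* itself, on chromosome 5 of GRCm38 from 53466152 to 53657362, was at 15.1, 20.1 and 37.9 CPM in the controls and 9.48, 16.2 and 2.09 CPM in the cKO. The lowest control lay just under the highest cKO library, so the groups overlapped. The counts sum all exons of the gene, including those outside the floxed part, and check the deletion only in part. In cKO replicates 1 and 2, at least, transcript from the locus remained. The log2 fold change was −1.54 (SE 1.16, n = 3 per group), and it was −0.46 within batch 1, the value of cKO replicate 3 being the lowest. On a scale per exon length the mean was 1.91 ± 0.943 FPKM (SD, n = 3) in the controls and 0.726 ± 0.553 FPKM (SD, n = 3) in the cKO.

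Few genes differed between cKO and control TEPCs by more than the spread of the libraries. Of 19140 genes tested, 5 (0.0261%) were called by edgeR's quasi-likelihood test at a Benjamini-Hochberg adjusted p of at most 0.05, and all 5 were higher in the cKO. They were *Xaf1*, *Fgl2*, *Lgals3*, *Zcchc4* and *H2-Q7*. No gene was called lower in this fit. The authors' method, limma-voom, called no gene in either direction, and neither did edgeR without batch terms. DESeq2 called 229 genes higher, among them all 5, and 120 lower. With edgeR but no filter on low counts 36 genes were called higher and 16 lower. The main fit estimated the spread from all libraries of the series. In a fit of only the groups compared no gene was called, with 291 at an unadjusted p under 0.05. At an unadjusted p under 0.05 edgeR found 425 genes higher (2.22%) and 300 lower (1.57%). The 3 cKO and 3 control libraries did not overlap for 567 genes that were higher (2.96%) and 577 that were lower (3.01%). The estimate was above 0 for 46.8% and below 0 for 48.3% of the genes tested, and its median was 0. Scaling to 3 housekeeping genes instead of TMM moved that median to −0.36, and no gene was then called, with 1012 at an unadjusted p under 0.05. A gene was also called lower without control replicate 1, control replicate 2 or cKO replicate 1 and with the replicate block, 1 in each. The count of calls was 0 without cKO replicate 2 and 3 without control replicate 2, and between 5 and 6 without any other library. Within batch 1 alone 6 genes were called, of which *Fgl2* was also among the 5, and batch 2 holds only 1 library per group. In a bulk library a lower level can come from fewer cells that express a gene or from less RNA per cell, and these cannot be told apart.

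**Figure D1:**
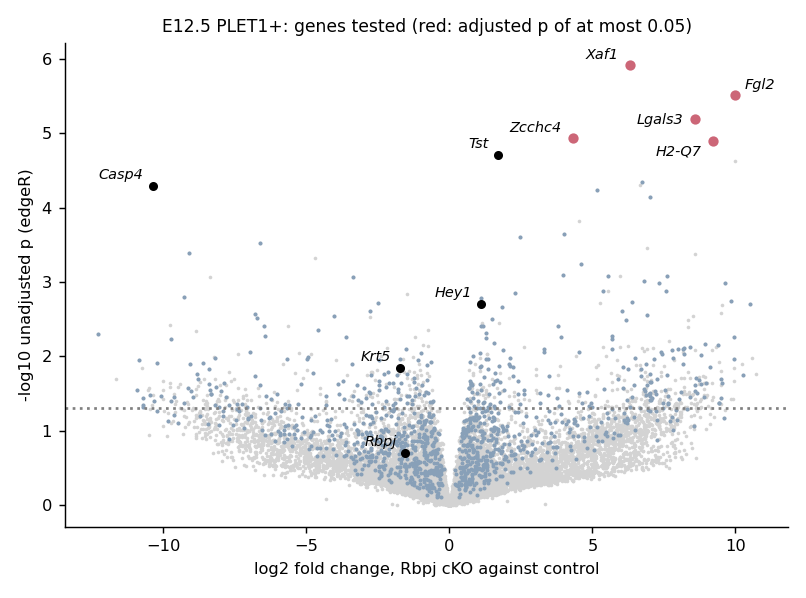
Each point is a gene with a count at E12.5, with the log2 fold change of cKO against control libraries on the x axis and −log10 of the unadjusted p on the y axis. The 5 called genes, in red, all lie on the right, genes whose libraries do not overlap are blue-grey, and *Casp4*, *Tst*, *Hey1*, *Krt5* and *Rbpj* are marked in black.

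*Xaf1* (XIAP-associated factor 1, an interferon-inducible promoter of apoptosis) had the smallest p. It lies on chromosome 11 from 72301629 to 72313733. The controls held 2, 0 and 4 counts, the cKO libraries 69, 80 and 88, which is 0.0832, 0 and 0.0742 CPM against 2.35, 3.66 and 4.98 CPM. All cKO libraries were above all controls, including within batch 1 and within batch 2. The cKO mean was 69.8-fold higher, with a log2 fold change of 6.31 (SE 0.88, edgeR adjusted p = 0.0227). The control mean lay below the level of 3 counts per library (0.0765 CPM), so the size of this fold is uncertain. Within batch 1 alone the log2 fold change was 6.56 (edgeR adjusted p = 0.0547). The call was lost without control replicate 3, cKO replicate 2 or cKO replicate 3, and over 17 alternative analyses the log2 fold change lay between 5.57 and 7.15 and the adjusted p between 1.08e-11 (DESeq2) and 1.

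*Fgl2*, which encodes a fibrinogen-like protein with membrane-bound and secreted forms, lies on chromosome 5 from 21372642 to 21378374. No control library held a count. The cKO libraries held 113, 137 and 0 counts, or 3.84, 6.27 and 0 CPM. The gene was thus seen only in the cKO replicates of batch 1, and cKO replicate 3 was at the control level. Against a floor of 3 counts per library in the controls, its cKO mean was at least 44.0-fold higher (edgeR adjusted p = 0.0288). Leaving out control replicate 1, control replicate 2 or cKO replicate 2 ended the call. *Fgl2* passed the filter on low counts only through its E14.5 levels, and it was not tested in a fit of the E12.5 libraries alone.

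*Lgals3*, the gene of the sugar-binding lectin galectin-3, lies on chromosome 14 from 47367751 to 47386160. It had no count in the controls and 63, 30 and 3 counts in the cKO, or 2.14, 1.37 and 0.17 CPM. The cKO mean was at least 16-fold higher against the same floor (edgeR adjusted p = 0.0408). The library of batch 2 again held the fewest counts. Like *Fgl2*, *Lgals3* passed the filter on low counts only through its E14.5 levels.

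*H2-Q7*, a nonclassical major histocompatibility complex (MHC) class I gene, lies on chromosome 17 from 35439155 to 35443773. It had no count in the controls and 98, 17 and 18 counts in the cKO, or 3.33, 0.778 and 1.02 CPM. The cKO mean was at least 22.3-fold higher (edgeR adjusted p = 0.0482). Its near-identical neighbours in the H2-Q cluster make the assignment of these reads uncertain. *H2-Q4*, from the same cluster, had the opposite order, at 1.96, 3.63 and 4.81 CPM in the controls and 0, 0 and 0.566 CPM in the cKO.

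*Zcchc4*, whose product methylates ribosomal RNA, was the most abundant of the called genes. It lies on chromosome 5 from 52775409 to 52824665, 641 kb from *Rbpj*. Its levels were 1.497, 0.883 and 0.316 CPM in the controls and 33.7, 22.004 and 4.47 CPM in the cKO. The groups did not overlap, and in both groups the library of batch 2 was the lowest. The cKO mean was 22.3-fold higher, with a log2 fold change of 4.31 (SE 0.71, edgeR adjusted p = 0.0482). For *Lgals3*, *Zcchc4* and *H2-Q7* the call was lost when any library was left out, without a change of direction.

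Since *Zcchc4* and *Rbpj* both lie on chromosome 5, the genes around *Rbpj* were examined as well. Of 16 tested genes with a count within 1 Mb on either side, *Zcchc4* was the only gene at an unadjusted p under 0.05 (6.25% of the 16, against 3.79% of all genes tested). *Stim2*, a calcium sensor of the endoplasmic reticulum, lies 341 kb away and was lower in all cKO libraries than in any control, with a log2 fold change of −1.49 and an unadjusted p of 0.204 from edgeR. Within 5 Mb 1 of 40 genes and within 10 Mb 2 of 77 genes were at an unadjusted p under 0.05, and on the whole chromosome 47 of 1273 (3.69%). Whether DNA linked to the floxed allele differs between the groups was not tested.

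At E14.5 all of the called genes were expressed in control TECs, and above the E12.5 control level in each library. In E14.5 PLET1+ cells *Xaf1* was at 42.3, 18.8 and 7.41 CPM in the controls and 72.8, 34.8 and 19.6 CPM in the cKO. In E14.5 PLET1- cells it was at 54.2, 42.0 and 16.8 CPM in the controls and 97.1, 38.5 and 34.1 CPM in the cKO. The E12.5 cKO values, at 4.98 CPM or less, were thus below every E14.5 library. *Zcchc4* was at 18.9, 15.98 and 21.2 CPM in E14.5 PLET1+ controls against 7.45, 15.4 and 9.96 CPM in the cKO. There all 3 cKO libraries lay below the controls, the reverse of E12.5. In PLET1- cells the groups overlapped, at 14.4, 26.4 and 18.1 CPM in the controls and 6.48, 27.3 and 23.04 CPM in the cKO. *Fgl2* ranged from 13.6 to 22.1 CPM in E14.5 PLET1+ controls against from 20.5 to 58.1 CPM in the cKO, and from 16.2 to 45.6 CPM in PLET1- controls against 4.77 to 22.9 CPM in the cKO. *Lgals3* ranged from 17.2 to 26.3 CPM in PLET1+ controls against 14.7 to 28.2 CPM in the cKO, with full overlap. In PLET1- cells it was at 7.15, 7.92 and 7.39 CPM in the controls and 23.3, 17.2 and 13.2 CPM in the cKO, where the groups did not overlap. *H2-Q7* ranged from 0.997 to 13.6 CPM in PLET1+ controls against 0.498 to 10.6 CPM in the cKO.

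The difference between the effect of *Rbpj* loss at E12.5 and at E14.5 was tested in the same fit. No gene was called by edgeR or limma-voom, either against PLET1+ cells (603 genes, 3.15%, at an unadjusted p under 0.05) or against PLET1- cells (672 genes, 3.51%). DESeq2 called 215 and 248 genes. For *Xaf1* the log2 effect at E12.5 exceeded that in E14.5 PLET1+ cells by 5.32 (SE 1.05, edgeR adjusted p = 0.234) and that in PLET1- cells by 5.62 (SE 1.05, edgeR adjusted p = 0.235). For *Zcchc4* the differences were 5.08 (SE 0.93, edgeR adjusted p = 0.180) and 4.37 (edgeR adjusted p = 0.531). A larger effect at E12.5 was therefore not shown for either gene.

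**Figure D2:**
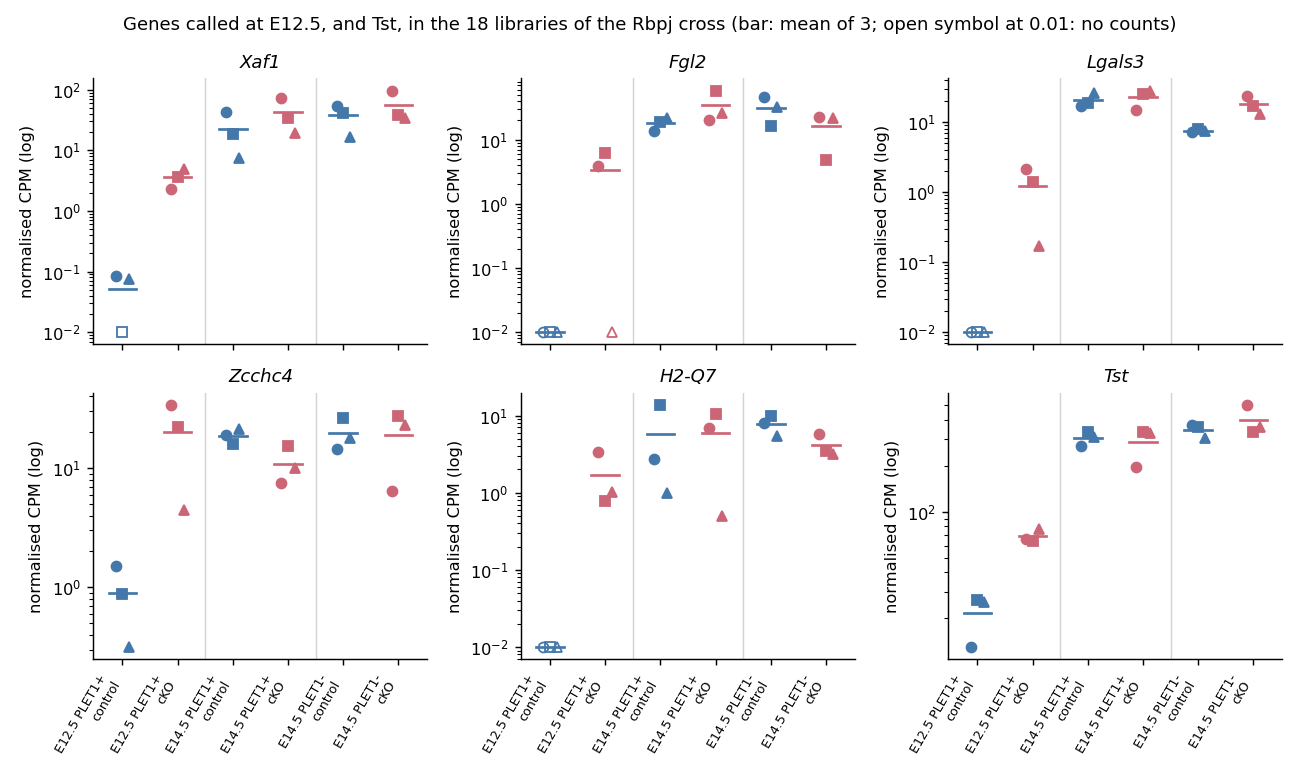
Each panel shows a gene (the 5 called genes and *Tst*) in 18 libraries, with CPM on a log axis against stage, sorted fraction and genotype, controls in blue and cKO in red, with a marker shape for each replicate and open symbols for 0 counts. The E12.5 control values of the called genes lie below all E14.5 values, and of the E12.5 cKO values only that of *Zcchc4* in replicate 1 lies above them all.

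Beyond the called genes, the protein-coding genes with the smallest p among those without overlap were described, 12 in each direction. *Tst*, which encodes the mitochondrial sulfurtransferase rhodanese, came closest among those higher in the cKO. It was at 13.0, 26.3 and 25.5 CPM in the controls and 65.9, 64.6 and 77.0 CPM in the cKO. The difference was 3.20-fold with little spread in the cKO, and the log2 fold change was 1.68 (SE 0.29, edgeR adjusted p = 0.0620). It was called with DESeq2, with RLE factors, without a filter and with a stricter filter. At E14.5 *Tst* was at 269 CPM or more in every PLET1+ and PLET1- control, above the E12.5 cKO level.

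The remaining genes of that rank included receptors, guanine nucleotide exchange factors and matrix proteins. *Ccn4*, a secreted matricellular protein known as a WNT-inducible gene, was at 0.541, 0.802 and 1.71 CPM in the controls and 11.5, 16.1 and 17.0 CPM in the cKO, a 14.6-fold difference. *Il13ra1*, a receptor subunit for the cytokine IL13, was at 1.58, 6.62 and 12.4 CPM in the controls and 40.0, 17.5 and 44.5 CPM in the cKO, a 4.94-fold difference. Neither *Ccn4* nor *Il13ra1* passed edgeR's adjusted test, and DESeq2 called both. *Rapgef4*, a cAMP-responsive exchange factor for RAP GTPases, was at 0.166, 0.213 and 2.78 CPM against 9.24, 24.1 and 13.0 CPM. *Prex2*, an exchange factor for RAC, was at 0.0416, 0.883 and 1.08 CPM against 6.08, 15.4 and 29.5 CPM. Both were near the limit of detection in control replicate 1 and well above it in all cKO libraries. *Tmem175*, a lysosomal potassium channel, was at 1.08, 1.11 and 9.63 CPM in the controls and 32.5, 27.3 and 45.7 CPM in the cKO. *Edar*, the receptor for ectodysplasin in skin appendages, held 0, 1 and 0 counts in the controls against 34, 5 and 37 in the cKO, and *Vwa1*, an extracellular matrix protein, 0, 0 and 1 against 1, 5 and 75. With so few control counts no fold is given for *Edar* and *Vwa1*. DESeq2 called all of these genes, edgeR without a filter called *Il13ra1*, *Rapgef4* and *Tmem175*, and *Rapgef4* was also called within batch 1 and without replicate 3 of either group.

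Among genes lower in the cKO, the smallest p was that of *Casp4*, an inflammatory caspase. It was at 8.36, 0.0327 and 2.21 CPM in the controls and had no count in the cKO. The cKO mean was at least 25.9-fold lower (edgeR adjusted p = 0.0981), but the range of the control values was wider than their mean. *Cldn12*, a claudin, was at 20.5, 32.7 and 23.6 CPM in the controls and 5.61, 5.08 and 0.339 CPM in the cKO, a 6.96-fold difference. *Arpc1b*, a subunit of the actin-nucleating ARP2/3 complex, was at 9.40, 14.1 and 10.9 CPM against 2.55, 1.28 and 0.113 CPM, an 8.72-fold difference. Control values were close to each other for both of these genes. *Ipp*, a kelch-domain actin-binding protein, was at 31.6, 10.1 and 13.6 CPM in the controls and 2.35, 6.08 and 1.02 CPM in the cKO. *Atg16l2*, a relative of the autophagy protein ATG16L1, was at 22.1, 15.3 and 4.96 CPM in the controls and 1.496, 0.869 and 0.283 CPM in the cKO. *Wscd1* was at 35.3, 5.38 and 11.7 CPM against 2.82, 4.71 and 1.92 CPM, the highest cKO library lying just under the lowest control. *Lyzl4*, a lysozyme-like gene, was at 3.74, 3.76 and 4.71 CPM in the controls and 0.476, 0 and 0.0566 CPM in the cKO.

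Several of these genes were all but undetected in the cKO. The chemokine gene *Cxcl1* held 3, 500 and 315 counts in the controls and 1 count in each cKO library. *Cadps2*, which primes dense-core vesicles for release, held 192, 388 and 431 counts against 5, 1 and 0. *Gulp1*, an engulfment adaptor, held 35, 1145 and 65 counts against 1, 2 and 1. In *Cxcl1* and *Gulp1* the control libraries differed among themselves by over an order of magnitude. *Brd3os*, which lies opposite *Brd3*, held 85, 745 and 604 counts in the controls against 0, 0 and 1 in the cKO, and because reads were counted without strand its reads and those of *Brd3* cannot be told apart. None of the 12 genes lower in the cKO passed edgeR's adjusted test. DESeq2 called all 12, and edgeR without a filter called *Casp4*, *Cxcl1*, *Brd3os* and *Cadps2*. *Casp4* was also called with the replicate block and without control replicate 2, its adjusted p ranging from 8.61e-07 to 1 over the alternatives.

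The Notch pathway was then followed from receptor to target gene. No member of these lists was called, and of the 4 receptors none was without overlap. On the scale per exon length, *Notch2* was the most abundant receptor in the controls, at 28.6 ± 8.47 FPKM (SD, n = 3), followed by *Notch3* at 0.670 ± 0.205, *Notch1* at 0.547 ± 0.289 and *Notch4* at 0.290 ± 0.494 FPKM. The order of *Notch3*, *Notch1* and *Notch4* lay within their spread. *Notch2* was at 323, 392 and 211 CPM in the controls and 160, 100 and 618 CPM in the cKO. The 2 cKO libraries of batch 1 were below all controls and that of batch 2 above them. *Notch1* was at 3.83, 7.51 and 12.03 CPM against 6.73, 19.3 and 6.28 CPM, and *Notch3* at 7.24, 4.06 and 4.88 CPM against 4.96, 10.5 and 7.07 CPM, both with overlap. The log2 effect on *Notch3* exceeded that in E14.5 PLET1+ cells by 5.36 (SE 1.66, edgeR unadjusted p = 0.00475, adjusted p = 1).

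Among the ligands, *Jag1* led in the controls with 122 ± 51.0 FPKM (SD, n = 3), ahead of *Jag2* at 3.12 ± 2.16, *Dll4* at 1.31 ± 0.916, *Dll1* at 0.245 ± 0.383 and *Dlk2* at 0.218 ± 0.210 FPKM. *Jag2* and *Dll4* did not differ beyond their spread. *Jag1* was at 815, 946 and 379 CPM in the controls and 588, 624 and 2764 CPM in the cKO, where as for *Notch2* the cKO library of batch 2 stood apart from the others. *Dll4* was at 2.496, 9.06 and 3.54 CPM against 6.29, 6.68 and 0.226 CPM. *Dlk2*, a non-canonical ligand, was the only member of the 6 ligands tested that did not overlap, against 5.98% of all genes tested. Its levels were 0.125, 0.294 and 0.965 CPM in the controls and 3.23, 6.45 and 3.56 CPM in the cKO. *Dll1* was at 0.208, 0 and 2.89 CPM in the controls and had no count in the cKO.

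Of 17 tested genes that cleave or glycosylate Notch receptors or act on ligands, 7 were higher and 10 lower (4 and 13 under scaling to the housekeeping genes, 10 and 7 within batch 1), with a median log2 fold change of −0.09, and none was at an unadjusted p under 0.05 or without overlap. The metalloprotease *Adam10*, which makes the cleavage that ligand binding triggers, was at 411, 422 and 233 CPM in the controls and 250, 183 and 807 CPM in the cKO. Again cKO replicate 3 was the highest of all. *Mib1*, the ubiquitin ligase that ligands need in the sending cell, was also highest in that library, at 212, 191 and 182 CPM against 148, 193 and 437 CPM.

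Of 20 tested members of the nuclear complex, its co-repressors and its turnover, 8 were higher and 12 lower (3 and 17 under scaling to the housekeeping genes), with a median of −0.26, against a median of 0 over all genes. For 4 of them the groups did not overlap (20%, against 5.98% of all genes tested), 2 in each direction, and none was at an unadjusted p under 0.05. *Fbxw7*, which targets the Notch intracellular domain for degradation, was at 156, 203 and 118 CPM in the controls and 86.5, 83.3 and 70.0 CPM in the cKO (log2 fold change −0.97, SE 0.54). *Spen*, a co-repressor bound by RBPJ, was at 31.4, 23.4 and 19.0 CPM against 11.7, 18.3 and 15.2 CPM (log2 fold change −0.69, SE 0.52). *Kdm5a*, a histone demethylase recruited with RBPJ, was at 167, 165 and 180 CPM against 209, 197 and 187 CPM, a difference smaller than its standard error on the log2 scale (0.21, SE 0.33). *Numbl*, a relative of the Notch inhibitor *Numb*, was at 0.499, 0.0164 and 0.0557 CPM in the controls and 1.73, 5.86 and 1.75 CPM in the cKO. Mastermind genes overlapped: *Maml1* was at 18.8, 26.2 and 21.3 CPM against 15.02, 13.0 and 36.4 CPM.

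The target genes did not share a direction. Of 11 tested, 1 had no count at E12.5 (*Nrarp*), 4 were higher and 6 lower (3 and 7 under scaling to the housekeeping genes, 6 and 5 with limma-voom), and the median log2 fold change was −0.08. *Hey1* and *Heyl*, closely related transcriptional repressors, were the only ones at an unadjusted p under 0.05, in opposite directions. Over all genes tested 2.22% were higher and 1.57% lower at that p. *Hey1* was at 145, 156 and 43.9 CPM in the controls and 351, 160 and 151 CPM in the cKO, with a log2 fold change of 1.10 (SE 0.30, edgeR unadjusted p = 0.00200, adjusted p = 0.881). Only cKO replicate 3 lay within the range of the controls, and within each batch every cKO library was above the controls. *Heyl* was at 25.6, 40.1 and 7.01 CPM in the controls and 13.2, 4.39 and 0.453 CPM in the cKO, with a log2 fold change of −2.50 (SE 1.14, edgeR unadjusted p = 0.0418). Within each batch every cKO library of *Heyl* was below the controls. Under the other analyses the log2 fold change ran from 0.63 to 1.42 for *Hey1* and from −3.33 to −1.91 for *Heyl*, and only DESeq2 called *Hey1* (adjusted p = 0.026).

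At E14.5 *Heyl* was at 11.0, 29.8 and 25.9 CPM in PLET1+ controls against 0.0305, 4.79 and 2.32 CPM, without overlap. In E14.5 PLET1- cells it was at 18, 41.2 and 33.6 CPM against 0.547, 22.9 and 16.9 CPM, with overlap. *Hey1* was at 210, 206 and 178 CPM in PLET1+ controls against 86.3, 193 and 170 CPM in the cKO. The log2 effect on *Hey1* at E12.5 exceeded that in E14.5 PLET1+ cells by 1.51 (SE 0.43, edgeR unadjusted p = 0.00232, adjusted p = 1).

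*Hes1*, the target most abundant per length at 65.5 ± 42.5 FPKM (SD, n = 3) in the controls, was at 97.8, 70.4 and 232 CPM in the controls and 124, 146 and 146 CPM in the cKO. Its log2 fold change was 0.24 (SE 0.39), and the cKO libraries lay inside the control range. *Dtx1*, a ubiquitin ligase and Notch target, was the only target without overlap, where 5.98% of all genes tested did not overlap. Its levels were 13.2, 2.24 and 4.16 CPM in the controls and 0.034, 0.595 and 0 CPM in the cKO. *Hey2* was at 0.915, 0.0164 and 6.90 CPM against 4.04, 9.84 and 12.499 CPM. *Sox9*, at 89.3, 120 and 73.4 CPM against 79.4, 40.2 and 205 CPM, and *Myc*, at 143, 82.6 and 83.7 CPM against 120, 53.8 and 83.0 CPM, overlapped. *Hes5* did not pass the filter on low counts. *Hes6*, an inhibitor of HES1 activity, was at 203, 239 and 229 CPM against 377, 412 and 80.0 CPM. Replicates 1 and 2 of the cKO lay above all controls and cKO replicate 3 below them.

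**Figure D3:**
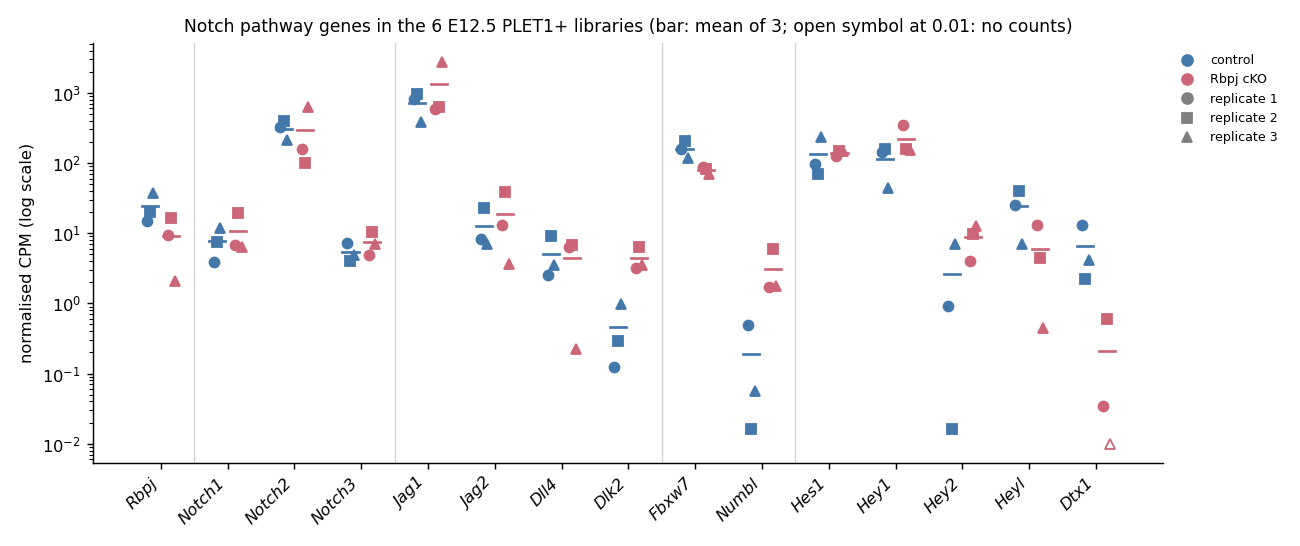
CPM of 15 Notch genes on a log axis in each of the 6 E12.5 libraries, controls in blue and cKO in red, with bars at the mean and open symbols at 0.01 for 0 counts. *Heyl* and *Dtx1* are low and *Hey1* and *Dlk2* high in the cKO, while *Notch2* and *Jag1* split by library within the cKO.

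Lists of genes that mark TEC identity and lineage were described next. The counts in them are to be read beside the shares over all genes tested. Of these, 5.98% did not overlap and 3.79% were at an unadjusted p under 0.05. Of 15 tested genes of the third pouch and early TEPCs, 4 were higher and 11 lower, with a median of −0.22, none at an unadjusted p under 0.05. *Pax1* was at 341, 330 and 148 CPM in the controls and 297, 245 and 241 CPM in the cKO, *Pax9* at 168, 91.1 and 181 CPM against 72.9, 123 and 157 CPM, and *Isl1* at 473, 635 and 197 CPM against 387, 219 and 189 CPM. These transcription factors of the pouch endoderm overlapped between the groups. *Hoxa3*, needed for the pouch to form a thymus, was the only member without overlap, at 1.79, 2.45 and 1.82 CPM against 1.26, 1.46 and 0.396 CPM. *Trp63*, the master regulator of stratified epithelium, was at 262, 268 and 158 CPM against 151, 259 and 150 CPM.

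Of 12 genes of *Foxn1* and the cTEC program, 7 were higher and 5 lower (3 and 9 under scaling to the housekeeping genes), with a median of 0.13. *Psmb11*, the thymoproteasome subunit, was at 133, 87.8 and 72.9 CPM in the controls and 123, 239 and 36.7 CPM in the cKO. *Il7*, the cytokine for early thymocytes, was at 1620, 1760 and 870 CPM against 1868, 1466 and 1322 CPM. Both overlapped, as did *Prss16* at 461, 380 and 209 CPM against 357, 350 and 155 CPM. *Kitl*, the ligand of KIT on thymocyte progenitors, was the only member without overlap, at 195, 262 and 237 CPM against 273, 346 and 358 CPM, but its difference was within error (log2 fold change 0.49, SE 0.33).

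Of 19 tested mTEC genes, 7 were higher, 10 lower and 2 without a count at E12.5 (*Aire* and *Ccl19*), with a median of −0.13. Within batch 1 alone 10 were higher and 4 lower (median 0.19), as without control replicate 3 (0.20) or cKO replicate 3 (0.10), and limma-voom gave a median of 0.29. *Krt5*, a keratin of basal and medullary epithelium, was the only member at an unadjusted p under 0.05 or without overlap. It was at 99.0, 43.4 and 44.3 CPM in the controls and 24.2, 9.15 and 22.5 CPM in the cKO, with a log2 fold change of −1.72 (SE 0.63, edgeR unadjusted p = 0.0143). The adjusted p was 1, and the log2 fold change lay between −2.23 and −1.20 in all alternative analyses. *Krt14* and *Krt17* were uneven within the controls, at 0, 23.2 and 0.0186 CPM and at 0.915, 31.7 and 70.4 CPM. *Tnfrsf11a*, which encodes the receptor RANK, had counts only in replicate 3 of both groups, at 5.31 CPM in the control and 4.64 CPM in the cKO. *Cldn4* was at 16.5, 30.1 and 66.9 CPM against 55.1, 14.3 and 2.998 CPM, and *Stat3* at 4.62, 25.6 and 29.5 CPM against 46.7, 73.7 and 25.3 CPM, both with overlap.

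All 6 genes of the parathyroid, the gland that shares the third pouch with the thymus, had a lower estimate in the cKO, with a median log2 fold change of −1.16, or −1.56 under scaling to the housekeeping genes, and none was at an unadjusted p under 0.05. *Pth*, the hormone gene, was at 1216, 1492 and 8674 CPM in the controls and 902, 1484 and 624 CPM in the cKO. Control replicate 3 stood far above the other 5 libraries, and a similar excess was seen for *Casr*, the calcium sensor, at 9.19, 0.573 and 61.9 CPM against 1.12, 3.43 and 1.81 CPM. *Gcm2*, the parathyroid-determining factor, was at 62.3, 5.07 and 63.8 CPM against 17.4, 14.96 and 35.3 CPM, with overlap. *Gata3* was the only member without overlap, at 53.0, 43.9 and 79.3 CPM in the controls and 34.2, 13.998 and 34.1 CPM in the cKO (log2 fold change −1.08, SE 0.67). Within batch 1 the 6 genes were still all lower, with a median of −1.03, and without control replicate 1 there were 5 lower and 1 higher. The part of cells of parathyroid identity in the sorted samples was not tested.

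MHC and antigen presentation genes had a median of 0, with 7 of 15 tested higher, 6 lower and 2 without a count. Under scaling to the housekeeping genes 4 were higher and 9 lower (median −0.30), and within batch 1 likewise 4 and 9 (median −0.05). *Psmb10*, an immunoproteasome subunit, was without overlap at 94.2, 89.3 and 104 CPM in the controls and 121, 218 and 123 CPM in the cKO (log2 fold change 0.67, SE 0.28, edgeR unadjusted p = 0.0271). The classical class I gene *H2-D1*, whose reads may be shared with its paralogs, was at 0, 0.0164 and 5.57 CPM against 3.54, 2.01 and 20.8 CPM. Within each batch its cKO libraries were above the controls. *Ciita*, the class II transactivator, was at 5.57, 13.1 and 0.0371 CPM in the controls and 0.068, 0.823 and 0.0566 CPM in the cKO. The class II gene *H2-Ab1* was at 587, 552 and 196 CPM against 469, 525 and 258 CPM, with overlap.

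Cell cycle genes were 15 higher and 9 lower of 24, with a median of 0.11, but 5 higher and 19 lower under scaling to the housekeeping genes (median −0.32, close to that of all genes). None was at an unadjusted p under 0.05 or without overlap. *Mki67* was at 287, 252 and 146 CPM in the controls and 175, 339 and 133 CPM in the cKO, and *Ccnb1* at 219, 429 and 178 CPM against 569, 213 and 257 CPM. Of 24 tested genes of BMP, FGF, WNT and Hedgehog signaling, 14 were higher and 10 lower (8 and 16 under the housekeeping scaling), with a median of 0.12. *Bmp2* and *Etv4*, an FGF-responsive transcription factor, were without overlap (2 of 24, against 5.98% of all genes tested). *Bmp2* was at 2.54, 2.01 and 0.909 CPM against 2.96, 8.19 and 15.7 CPM and *Etv4* at 0.957, 0.344 and 0.0186 CPM against 1.05, 1.78 and 2.21 CPM. The thymic FGF receptor gene *Fgfr2* was at 269, 290 and 248 CPM in the controls and 301, 472 and 225 CPM in the cKO, and *Bmp4* at 75.5, 77.9 and 129 CPM against 114, 76.0 and 32.6 CPM.

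**Figure D4:**
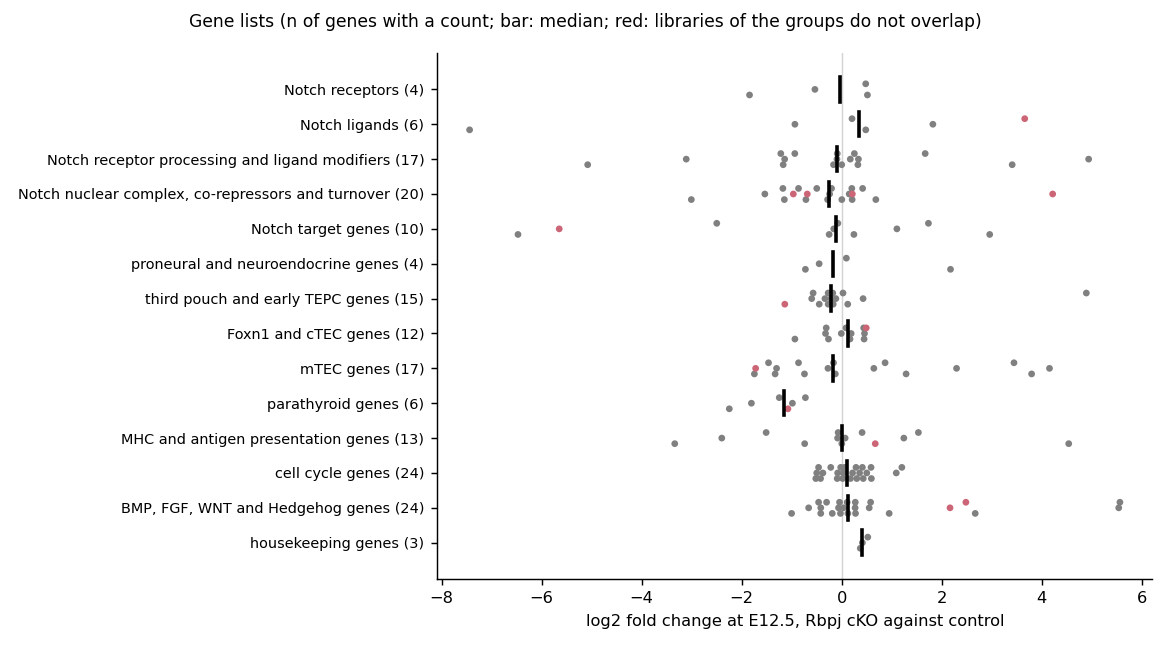
Log2 fold change of cKO against control at E12.5 for each gene with a count, by list, with a bar at the median of those genes and genes without overlap in red. The parathyroid list lies wholly below 0, while the lists of the Notch pathway and of TEC identity straddle it.

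Finally the E12.5 comparison was set beside the same comparison at E14.5, which uses other control libraries. In the joint fit no gene was called at E14.5 in either fraction or direction at an adjusted p of at most 0.05. All these comparisons took their spread from that fit, so the gene sets are not independent. Of the 300 genes lower at E12.5 at an unadjusted p under 0.05, 15 were also lower in E14.5 PLET1+ cells, which is 5% of them and 6.17% of the 243 genes lower there, where 1.27% of all genes tested were lower. In the opposite direction were 3 of the 300. In E14.5 PLET1- cells 12 of the 300 were lower (4%, and 4.2% of 286), against 1.49% of all genes, and 4 were higher. Of the 425 genes higher at E12.5, 8 were higher in E14.5 PLET1+ cells (1.88%, against 0.794% of all genes) and 8 lower (1.88%, against 1.27%). In PLET1- cells 4 of the 425 were higher (0.941%, against 0.841% of all genes) and 10 lower (2.35%, against 1.49%). Over the alternative analyses the genes lower at both stages numbered 7 to 28 for PLET1+ and 6 to 43 for PLET1- cells, and those higher at both stages 1 to 29 and 1 to 31. The shares were not tested.

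The genes that were lower in all 3 comparisons numbered 4, against 0 that were higher, and they are named here after their values were seen. The 3 comparisons are not independent tests, because they share an estimate of the spread, and both E14.5 fractions may come from the same embryos. *Krt5*, on chromosome 15 from 101707070 to 101712891, was at 291, 494 and 312 CPM in E14.5 PLET1+ controls against 51.6, 108 and 52.6 CPM in the cKO (log2 fold change −2.38, SE 0.64). In PLET1- cells it was at 20.2, 138 and 25.4 CPM against 10.2, 17.1 and 23.4 CPM (log2 fold change −1.73, SE 0.65). The PLET1+ groups did not overlap and the PLET1- groups did. *Rgs4*, a regulator of G-protein signaling on chromosome 1 from 169741477 to 169747642, was at 3.91, 21.4 and 0.0371 CPM in the E12.5 controls and 3.23, 0 and 0.0566 CPM in the cKO, with overlap. Its levels in E14.5 PLET1+ cells were far higher, at 404, 436 and 420 CPM in the controls and 33.7, 105 and 33.5 CPM in the cKO. In PLET1- cells they were 168, 262 and 375 CPM against 91.6, 65.4 and 81.1 CPM, and at E14.5 neither fraction overlapped between the groups.

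*Myl7*, an atrial myosin light chain on chromosome 11 from 5896637 to 5898782, held 13, 126 and 254 counts in the E12.5 controls against 1, 0 and 0 in the cKO. It held 188, 178 and 82 counts in the E14.5 PLET1+ controls, 15, 17 and 17 counts in the PLET1- controls and none in any of the 6 E14.5 cKO libraries. The fourth gene, *Gm20275*, is antisense to another gene and was counted without strand, so its values are not given. For *Krt5*, *Rgs4* and *Myl7* the edgeR adjusted p was 1 at E12.5. *Krt5* and *Rgs4* were called when no filter on low counts was used, and *Myl7* by DESeq2.

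**Figure D5:**
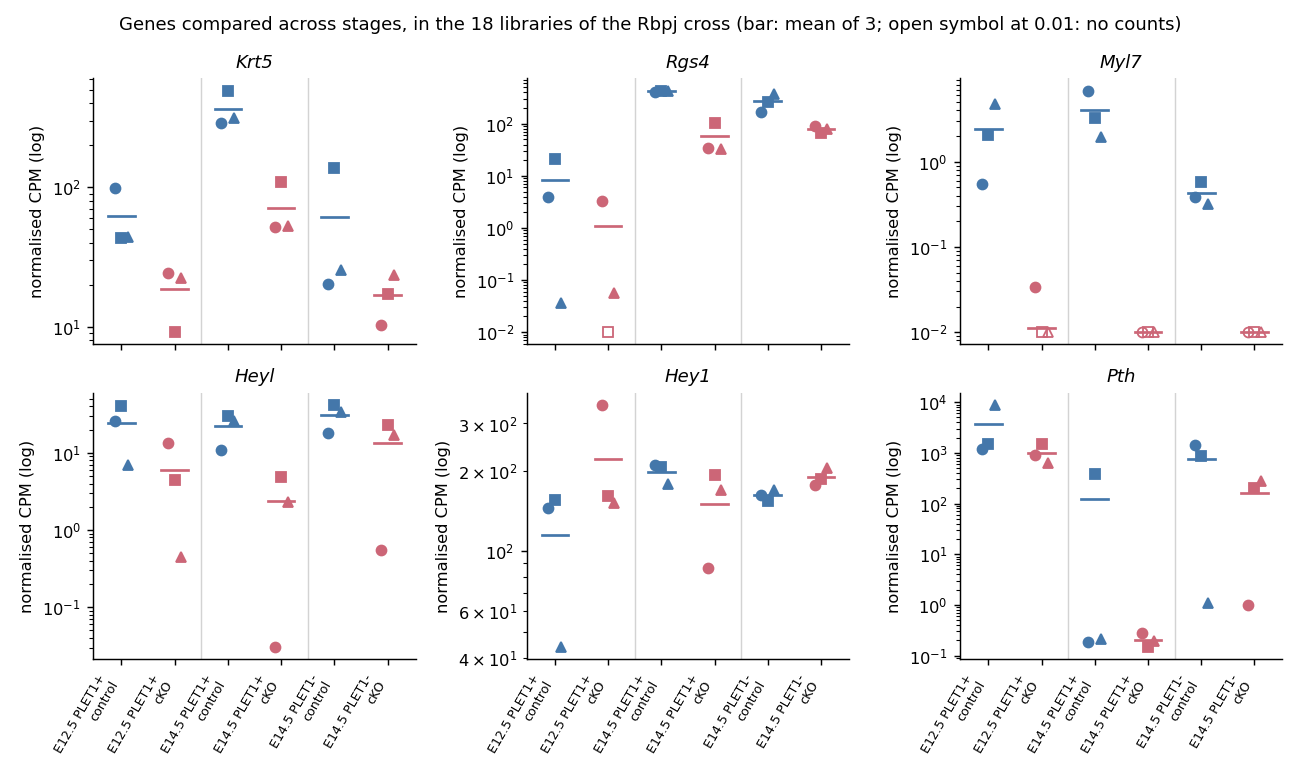
CPM of *Krt5*, *Rgs4*, *Myl7*, *Heyl*, *Hey1* and *Pth* on log axes in the 18 control (blue) and cKO (red) libraries at E12.5 and in both E14.5 fractions, with a marker shape for each replicate. *Myl7* is near or at 0 counts in all 9 cKO libraries, and *Pth* is highest in control replicate 3 at E12.5.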

How the data were processed

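The authors trimmed reads with Trimmomatic 0.32, aligned them with STAR 2.5.1a to GRCm38 and counted read pairs with both ends mapped, without strand, over GENCODE vM12 genes with featureCounts (1.5.0-p3 per the file header, 1.5.1 per the labels). The deposited table holds the resulting raw count per gene, unnormalized, for 50123 genes. Groups, replicate numbers and batches come from the labels.

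Counts were scaled with edgeR's TMM factors, and 19140 genes passed filterByExpr. The groups were compared with edgeR's two-sided quasi-likelihood test (glmQLFTest). The fit took all 23 libraries, a mean for each of 7 groups and terms for batch within E12.5 and within the E14.5 cross, with Benjamini-Hochberg adjustment over all genes tested. The authors' limma-voom was an alternative. Genes were called at an adjusted p of at most 0.05. Exact permutation of 3 against 3 libraries could not give a p below 0.10 and was not used. FPKM divides the scaled count by total exon length. A group at 0 counts was set to 3 counts per library for a fold. Libraries did not overlap where all cKO values lay on the same side of all control values. In the main fit, medians take in every gene tested, with those without a count at E12.5 entered as 0.

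Genes named are *Rbpj*, the called genes, the 12 protein-coding genes without overlap and with the smallest p in each direction, and members of the gene lists. Some genes that these rules cover are not reported here. The members and lists were chosen with earlier results of these data known. The interferon list, *Stim2*, *Rgs4* and *Myl7* were added after their values were seen. Alternatives were DESeq2, limma-voom, RLE factors, scaling to 3 housekeeping genes, no filter, a stricter filter, no batch terms, a replicate block, only the 2 groups compared (the 4 for a stage difference), batch 1 only, and each E12.5 library left out. A sex term was added after seeing the data. The fits were tested on simulated counts. Versions were DESeq2 1.42.0, limma 3.58.1, edgeR 4.0.16, R 4.3.3 and Python 3.11.15.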

Additional observations from a re-analysis of the deposited data

How the results depend on the processing

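The 5 called genes kept their direction in all 17 alternatives, wherever these gave a value (the sex term was chosen after seeing the data), but the number of genes called at E12.5 moved. It was 349 with DESeq2, 52 without a filter (4 of the 5 among them), 2 with the replicate number as a block, 1 with sex as a term (*Xaf1*), and 0 with limma-voom (614 at an unadjusted p under 0.05), with scaling to the housekeeping genes (1012), without batch terms (1089) and in a fit of only the groups compared (291). Leaving out a library gave 0 (without cKO replicate 2) to 6 calls. *Xaf1* was called in 9 of 17 alternatives, *Fgl2* in 8 of 16, *Lgals3* in 4 of 16, *H2-Q7* in 4 of 17 and *Zcchc4* in 3 of 17. *Fgl2* and *Lgals3* have 16 because they did not pass the filter in the fit of only the groups compared. For the stage differences, with 0 calls in the main analysis, DESeq2 called 215 genes against E14.5 PLET1+ cells and 248 against PLET1- cells, and the analysis without a filter 24 and 31. Batch 1 alone gave 3 and 4, the stricter filter 0 and 1, and leaving out a library 0 to 3 and 0 to 4. Of 67 named genes, 60 kept their direction throughout, and no reversed estimate had been called. Estimates that reversed were those of *Ywhaz* (0.37; −0.054 under housekeeping scaling, −0.26 in batch 1, −0.26 to 0.64 with a library left out), *Dll4* (−0.94; 0.15 in batch 1, −1.93 to 0.16) and *Notch4* (−1.84; 0.090 with limma-voom, 1.36 with the replicate block, −3.28 to 2.74). The estimate of *Hes6* (0.09) was −0.28 under housekeeping scaling and −0.074 with the sex term, and −0.27 to 0.83 with a library left out. With a library left out *Notch1* ran from −0.29 to 1.19, *Notch2* from −1.47 to 0.021 and *Pou2f3* from −2.20 to 4.03. The cause of these changes was not tested.

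The replicate numbers gave no sign of pairing the libraries, but the correlations used cannot exclude a shared litter or day. Replicate 3 of both groups shares a batch, and that pair too correlated at only 0.02. Deviations from the group means of libraries with the same number correlated at 0.05, −0.09 and 0.02 across 8133 genes, and those with different numbers at −0.13 to 0.10. With the replicate block 2 genes were called, 1 higher and 1 lower, and 1 of them was among the 5.

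Libraries of 100 cells had no molecular identifiers, so the floors cover counting error only. The floor of 3 counts equals 0.0765 CPM on average in the controls and 0.136 CPM in the cKO, which were read less deeply.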

Other observations

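Because *Xaf1*, *H2-Q7* and *Casp4* are known as interferon-inducible, 46 genes of that kind were examined after these values were seen, so their counts are no independent evidence. Of 45 tested, 23 were higher, 17 lower and 5 without a count at E12.5. The median log2 fold change was 0.23 against 0 over all genes, with genes without a count entered as 0. Without overlap were 4 that were higher and 3 that were lower, against 5.98% of all genes tested in either direction, and the genes that prompted the list are among them. *Igtp*, an interferon-inducible GTPase on chromosome 11 from 58199556 to 58207591, was at 0.374, 0.900 and 0.0928 CPM in the controls and 9.41, 22.3 and 26.4 CPM in the cKO (log2 fold change 5.55, SE 1.38, edgeR adjusted p = 0.615). *Oas1a* went the other way, at 6.12, 5.87 and 0.0186 CPM in the controls with no count in the cKO. *Isg15* was at or near 0 in all 6 libraries. At E14.5 *Igtp* was at 32.0 to 94.9 CPM in the PLET1+ controls and 59.6 to 163 CPM in the PLET1- controls, above every E12.5 library.

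Summed Y-linked genes were at 312, 0.274 and 0.433 CPM in the E12.5 controls and 411, 380 and 0.526 CPM in the cKO, so batch 2 held no library with Y-linked expression. At E14.5 the PLET1+ and PLET1- libraries of the same group and replicate number were alike in this, with control replicate 2 and cKO replicate 3 high in both fractions. Whether both fractions came from the same embryos is not given in the sources used here. The share of counts on mitochondrially encoded genes was at least 9.30% in the E12.5 controls and at least 6.80% in the cKO, highest in both groups in batch 2.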
